A study of Mus musculus with 6 samples.

Results

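The 10 inflammatory effector genes described here were measured by RNA-seq in mouse bone marrow mesenchymal stem cells (BMSCs), precursors of osteoblasts, with and without low-dose nickel. The 10 genes were matched by name in the deposited annotation, out of 54532 genes in the count table, and each name matched a single gene. Saa3 and Acod1 were selected on their lower counts in the nickel libraries of these data, so their values are a description and carry no test. The other 8, Lcn2, Nos2, Il1a, Il1b, Il1rn, Il6, Tnf and Il10, are classical inflammatory products. Wild-type BMSCs at 70% confluence were moved to osteogenic medium and kept there for 7 days, with 0.1 μM nickel ions in the Ni group and vehicle alone in the control group, and RNA from 3 independent biological replicates of each group was sequenced. Both groups received ascorbic acid (50 μg/mL), β-glycerophosphate (10 mM) and dexamethasone, a glucocorticoid known to repress many inflammatory genes. The labels give the dexamethasone concentration as 100 nM, and the study's methods give a lower one. The strain, sex and age of the mice are not given in the sources used here.

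Inflammatory genes of this kind are switched on when receptors for microbial products or cytokines activate NF-kB, C/EBP and STAT factors. Macrophages are a main source of TNF, IL-1, IL-10 and itaconate, whereas serum amyloid A3 and lipocalin 2 are secreted by macrophages and also by stimulated stromal cells and adipocytes. IL-10 and the IL-1 receptor antagonist limit the response, and IL-1 and TNF are known to favour bone resorption and to restrain osteoblast formation.

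The totals ranged from 16101033 to 18642504 counts per library. Of the genes in the table, 14624 passed edgeR's filter on low counts and were tested between Ni and control with its quasi-likelihood test, and the members tested are part of that fit. CPM below is the count relative to the TMM-scaled library size, and a log2 fold change is Ni minus control. At an adjusted p under 0.05 (Benjamini-Hochberg over all genes tested), edgeR called 0 genes, which is 0.0%, against 1963 at an unadjusted p under 0.05 and 261 with DESeq2. Control replicate 3 weighed on this count, which was 2283 without it. Macrophage transcripts were abundant in these cultures, which are labelled as mesenchymal cells. All 22 genes of a macrophage marker list passed the filter, and their summed level lay from 32279 to 37519 CPM in the controls and from 32145 to 32695 CPM in the Ni libraries. The 12 stromal markers summed to between 8054 and 11127 CPM in the controls and between 12531 and 14794 CPM in the Ni libraries. Much of this difference was Col1a2, at 4286 ± 1226 CPM in the controls and 8413 ± 1126 CPM in the Ni libraries (SD, n = 3 each). Of the 12, 9 had a positive log2 fold change and 3 a negative one, among them Cxcl12 at 2071 ± 276 and 1491 ± 128 CPM. T cell and erythroid lists summed to below 1 CPM in each library, and the neutrophil list of 14 genes, with S100a9, Ngp, Ltf and Retnlg listed at 0 in all libraries, to at most 83.0 CPM.

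The start regions of Saa3, Acod1 and Tnf are shown as examples of an acute-phase gene, an enzyme gene and a cytokine gene with all Ni libraries below all controls, which also held for Lcn2, Il1b and Il10. RefSeq start regions on GRCm38.p6, 250 bases before to 50 after the start, were at hand for 8 of the 10 members (10 regions, with 3 start sites for Il1rn), and not for Nos2 and Il10. Each was searched on both strands for a 10-base NF-kB motif, TTGCNNAA (C/EBP), TGANTCA (AP-1) and TTCNNNGAA (STAT). The 250 bases before the start are printed from 5′ to 3′ on the gene's strand for Saa3 (chr7:46715677-46715926, minus strand), Acod1 (chr14:103046762-103047011, plus strand) and Tnf (chr17:35202008-35202257, minus strand), with capitals for a C/EBP match.
Saa3: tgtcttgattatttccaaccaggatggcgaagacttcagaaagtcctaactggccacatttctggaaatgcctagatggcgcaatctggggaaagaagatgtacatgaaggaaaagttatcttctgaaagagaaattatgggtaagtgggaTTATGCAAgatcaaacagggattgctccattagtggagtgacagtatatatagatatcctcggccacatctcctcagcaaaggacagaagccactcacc
Acod1: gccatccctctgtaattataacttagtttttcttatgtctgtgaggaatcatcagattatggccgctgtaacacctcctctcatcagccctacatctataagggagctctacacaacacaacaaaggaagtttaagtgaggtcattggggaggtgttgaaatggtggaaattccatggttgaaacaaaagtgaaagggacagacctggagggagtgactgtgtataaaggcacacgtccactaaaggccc
Tnf: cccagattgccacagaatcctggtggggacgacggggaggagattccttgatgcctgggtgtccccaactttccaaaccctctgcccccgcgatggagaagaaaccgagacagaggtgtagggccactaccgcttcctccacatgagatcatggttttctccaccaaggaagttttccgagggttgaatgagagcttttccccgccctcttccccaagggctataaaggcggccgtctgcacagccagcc

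The letters searched for C/EBP, which occur in 10.8% of 32851 RefSeq start regions of this length, were found in 3 members. Counted from the RefSeq start, they lay at -99 to -92 in Saa3 on the opposite strand, at -216 to -209 in Lcn2, and at -128 to -121 in Il6 on the opposite strand. For Saa3, Acod1 and Lcn2 the gene spans given below, from GENCODE M21, begin farther upstream than these RefSeq starts. The Lcn2 match lies inside its span, and the printed Saa3 and Acod1 regions overlap theirs in part. The letters searched for NF-kB, present in 4.79% of all start regions, were found in Il6 and Il1rn. In Il1rn the same stretch was met from overlapping regions, at 29 to 38 from start site 2, which is after that start, and at -51 to -42 from start site 3. Acod1, Il1b and Tnf held none of the 4 motifs in this window, and no member held the STAT letters, which 8.30% of all regions hold. AP-1 letters (7.81% of all regions) were found in Il1a, Il1rn and Il6. The 30 bases around 3 of these matches are shown, to set the C/EBP letters of Lcn2 beside those of Saa3 and to give the NF-kB letters, with the match in capitals, for Lcn2 (chr2:32387937-32387966, minus strand), Il6 (chr5:30013060-30013089, plus strand) and Il1rn (chr2:24345310-24345339, plus strand).
Lcn2, C/EBP: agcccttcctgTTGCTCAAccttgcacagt
Il6, NF-kB: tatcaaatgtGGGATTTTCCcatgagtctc
Il1rn, NF-kB: ggaaatatgaGGGTTTTTCCgcttctgaca

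Levels differed widely between the 10 genes. Per length, on the deposited FPKM scale, Saa3 was the most abundant, with a mean of 155 ± 75.8 FPKM (SD over the 6 libraries), and exceeded Il1rn at 46.1 ± 3.78 FPKM in each library. Il1rn and Tnf (43.0 ± 12.4 FPKM) did not differ beyond their spread over the 6 libraries, although Il1rn was above Tnf in all Ni libraries and Tnf above Il1rn in control replicates 1 and 2. Nor did Il10 (12.3 ± 3.81 FPKM) and Acod1 (9.27 ± 2.73 FPKM), but that spread includes the difference between the groups. Il10 was above Acod1 in 5 of the 6 libraries, the exception being control replicate 3, where they were level (11.609 and 11.618 FPKM). Within the groups the means of the 2 genes differed by more than their SDs together, at 15.2 ± 3.11 and 11.7 ± 0.211 FPKM in the controls and 9.46 ± 1.38 and 6.84 ± 0.919 FPKM in the Ni libraries (SD, n = 3 each). Their ranges still overlapped in the controls, through control replicate 3, and not in the Ni libraries. Lcn2 (1.50 ± 0.609 FPKM), Il1b (1.15 ± 0.188 FPKM) and Nos2 (0.948 ± 0.487 FPKM) formed a group with overlapping ranges over the 6 libraries, in which Nos2 had the lowest mean in the controls (0.705 FPKM) and the highest in the Ni libraries (1.19 FPKM). In the controls all Lcn2 values were above all Il1b values (means 2.00 and 1.31 FPKM), and in the Ni libraries their means were level (0.991 and 0.995 FPKM). Il1a (0.374 ± 0.128 FPKM) overlapped the range of Nos2 but was below it in each library. Il6 was lowest, at 0.0494 ± 0.0472 FPKM. The IL-1 antagonist was thus among the abundant messages of the set, and both agonists were among the scarce ones.

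Saa3 (ENSMUSG00000040026) encodes serum amyloid A3, an acute-phase protein made outside the liver, and lies on the minus strand of chromosome 7 from 46711998 to 46715700 (GRCm38, 4 exon blocks in GENCODE M21). It was counted 10973, 10690 and 7458 times in control replicates 1 to 3 and 3940, 5154 and 3795 times in Ni replicates 1 to 3. The highest Ni library was below the lowest control, control replicate 3. Its level was 573 ± 115 CPM (SD, n = 3) in the controls and 240.1 ± 49.1 CPM (SD, n = 3) in the Ni libraries, 41.9% of the control mean. The log2 fold change was -1.26 (standard error 0.18), and 61 of the 14624 genes had a lower one. Of its stretches of 50 bases, 3.57% occur in other genes, 245 in all. Saa1 is the only Saa gene among these, and Saa1 and Saa2 had at most 4 counts in a library. The counts of the other genes that share a stretch were not examined. Whether fewer cells made Saa3 or each held less of its RNA cannot be told apart in bulk RNA, and the same holds for each gene below.

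Acod1 (ENSMUSG00000022126; chromosome 14, 103046977 to 103056573, plus strand) encodes the mitochondrial enzyme that makes itaconate from cis-aconitate in activated macrophages. Its counts were 558, 501 and 513 in the controls and 282, 350 and 339 in the Ni libraries. The controls lay close together, at 30.9 ± 0.551 CPM (SD, n = 3), and the Ni libraries at 18.1 ± 2.49 CPM (SD, n = 3), or 58.4% of the control mean. The log2 fold change was -0.78 (standard error 0.12). Acod1 shared no stretch of 50 bases with another gene and overlapped no other exon. Unlike Saa3, Lcn2, Tnf and Il10, it was as high in control replicate 3 as in the other controls.

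**Figure D1:**
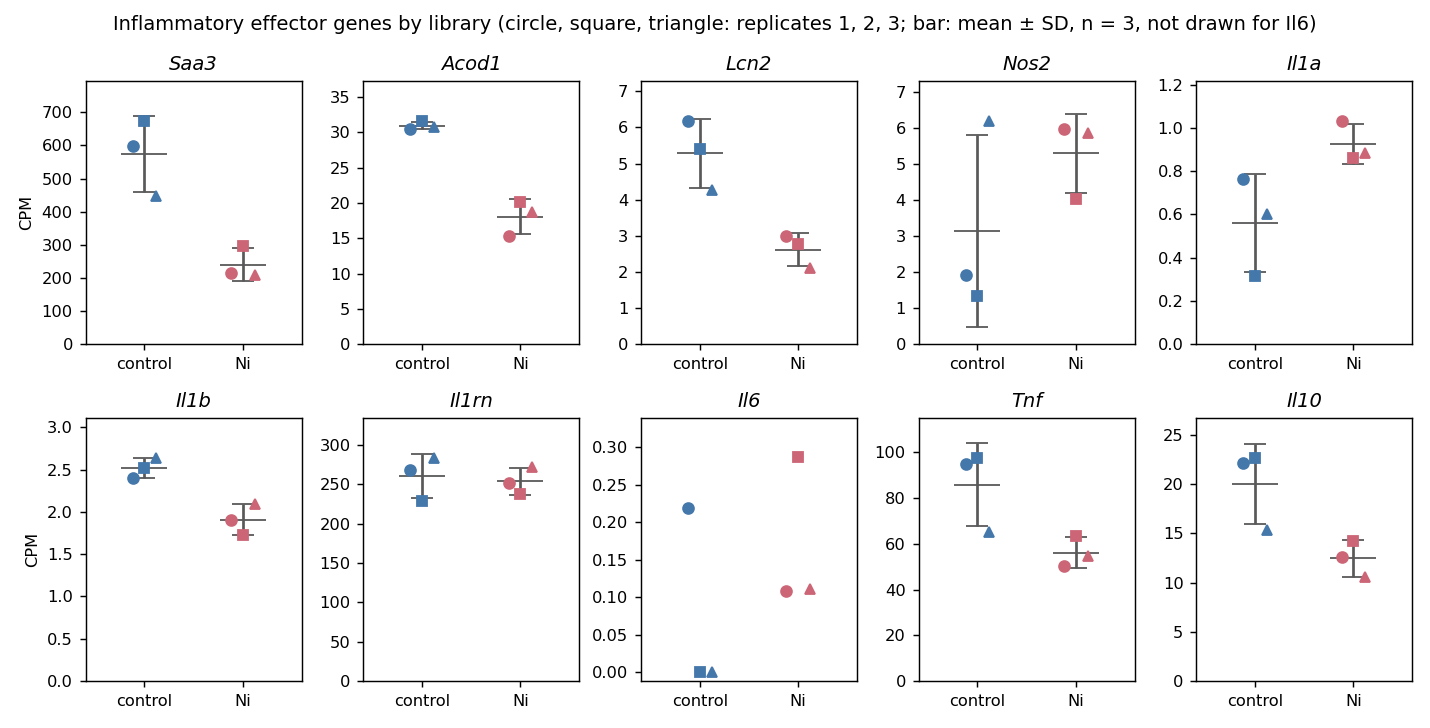
Level of each of the 10 genes in CPM (vertical axes, from 0, each with its own scale) in the 3 control and 3 Ni libraries, 1 point per library, with the mean and SD of each group except for Il6. The Ni libraries lie below all controls for Saa3, Acod1, Lcn2, Il1b, Tnf and Il10 and above them for Il1a, and the groups overlap for Nos2, Il1rn and Il6.

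Lcn2 (ENSMUSG00000026822; chromosome 2, 32384633 to 32388252, minus strand) encodes lipocalin 2, which binds bacterial siderophores and so withholds iron. Its counts were 113, 86 and 71 in control libraries against 55, 48 and 38 in Ni libraries. The groups did not overlap, and the mean went from 5.28 ± 0.964 CPM to 2.62 ± 0.461 CPM (SD, n = 3 each). The log2 fold change was -1.01 (SE 0.25) and did not pass the test (edgeR, unadjusted p = 0.00214, adjusted p = 0.241). Over the alternatives its adjusted p ran from 0.00872, without control replicate 3, to 0.772. Neutrophils store lipocalin 2, and their list, of which 5 of 14 genes passed the filter, summed to between 66.5 and 83.0 CPM in the controls and between 57.8 and 64.2 CPM in the Ni libraries. Most of that sum was Csf3r, a receptor gene at 70.2 ± 12.4 CPM in the controls and 54.7 ± 3.14 CPM in the Ni libraries, whereas the granule genes Camp (1.08 and 1.13 CPM) and Mmp8 (3.78 and 3.48 CPM) were scarce. The groups overlapped for all 3 genes, which were named after their values were seen. The part of neutrophils in the Lcn2 values was not tested.

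Tnf (ENSMUSG00000024401; chromosome 17, 35199381 to 35202007, minus strand) encodes tumour necrosis factor, the cytokine that starts much of the NF-kB response. Its counts were 1741, 1550 and 1083 in the controls and 924, 1101 and 990 in the Ni libraries. In CPM these were 95.1, 97.6 and 65.0 against 50.2, 63.4 and 54.7, so control replicate 3 and Ni replicate 2 nearly met. The log2 fold change was -0.62 (SE 0.16), with an unadjusted p of 0.00351 and an adjusted p of 0.262 in edgeR. The adjusted p ran from 5.60e-05, with no filter on low counts, to 0.815 over the alternatives.

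Il10 (ENSMUSG00000016529; chromosome 1, 131019845 to 131024974, plus strand) encodes interleukin 10, which restrains macrophage activation. Control replicates 1 to 3 gave 405, 360 and 256 counts, and Ni replicates 1 to 3 gave 232, 248 and 191. In CPM the controls were at 22.1, 22.7 and 15.4 and the Ni libraries at 12.6, 14.3 and 10.6. As for Tnf, control replicate 3 lay nearer to the Ni libraries than to the other controls. The log2 fold change was -0.69 (SE 0.18), with an unadjusted p of 0.00343 and an adjusted p of 0.262 in edgeR. The adjusted p ran from 0.00191, with no filter, to 0.815 over the alternatives. The Ni means of the proinflammatory Tnf and the anti-inflammatory Il10 were 65.3% and 62.2% of their control means.

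The 3 IL-1 genes, all on chromosome 2, had different signs. Il1b (ENSMUSG00000027398; 129364570 to 129371139, minus strand), the secreted agonist, gave 44, 40 and 44 control counts against 35, 30 and 38 with Ni. Its level was 2.52 ± 0.118 CPM in controls and 1.91 ± 0.186 CPM in Ni libraries (SD, n = 3 each), or -0.40 ± 0.26 on the log2 scale (fold change ± SE; edgeR, adjusted p = 0.533). Il1a (ENSMUSG00000027399; 129299610 to 129309972, minus strand), the agonist that acts largely within or on the surface of cells, gave 14, 5 and 10 control counts against 19, 15 and 16 with Ni. Here the Ni libraries were the higher ones, by 0.71 ± 0.45 on the log2 scale (fold change ± SE; edgeR, adjusted p = 0.513). Its value ran from 0.43 without control replicate 2 to 1.00 without control replicate 1. Of the 1974 exon bases of Il1a, 222 are also exon of Gm14023 on the other strand, as are 25 of the 1907 of Il1b for Il1bos, and whether reads were counted by strand is not given in the sources used here.

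Il1rn (ENSMUSG00000026981; chromosome 2, 24336853 to 24351494, plus strand) encodes the receptor antagonist that blocks both IL-1 agonists. It was counted 4903, 3642 and 4732 times in the controls and 4638, 4135 and 4919 times in the Ni libraries. The groups overlapped, at 260.4 ± 28.0 CPM and 254 ± 17.0 CPM (SD, n = 3 each), or -0.037 ± 0.11 on the log2 scale (fold change ± SE; edgeR, adjusted p = 0.918). The sign turned to 0.035 without control replicate 3 and to 0.011 without Ni replicate 2. Per length, Il1rn was at 29.4, 28.0 and 30.4 times the sum of Il1a and Il1b in the controls and at 29.9, 32.0 and 31.7 times in the Ni libraries. The ratio differed by 0.095 on the log2 scale, within the spread of the libraries (exact permutation test, two-sided, p = 0.2). With 3 libraries against 3, the smallest p this test can give is 0.1.

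Nos2 (ENSMUSG00000020826; chromosome 11, 78920787 to 78960254, plus strand) encodes inducible nitric oxide synthase, like Acod1 an enzyme of activated macrophages. Its counts were 35, 21 and 103 in the controls and 110, 70 and 106 in the Ni libraries. Control replicate 3, at 6.18 CPM, was the highest of all, whereas the other controls, at 1.91 and 1.32 CPM, were below each Ni library. Its log2 fold change, 0.75 ± 0.51 (SE), missed the threshold in edgeR (adjusted p = 0.556), and without control replicate 3 it was 1.70 (adjusted p = 0.00265). Over the alternatives the adjusted p reached 0.920. Nos2 had the opposite sign to Acod1.

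Il6 (ENSMUSG00000025746; chromosome 5, 30013114 to 30019981, plus strand), which encodes the cytokine that drives the acute-phase response, was close to undetected. Control libraries held 4, 0 and 0 of its counts and Ni libraries 2, 5 and 2, and it failed the filter. A count of 0 allows up to 3 counts, or 0.189 CPM in control replicate 2 and 0.180 CPM in control replicate 3, counting error only. A difference was not detectable at this depth (exact permutation test on CPM, two-sided, p = 0.3).

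**Figure D2:**
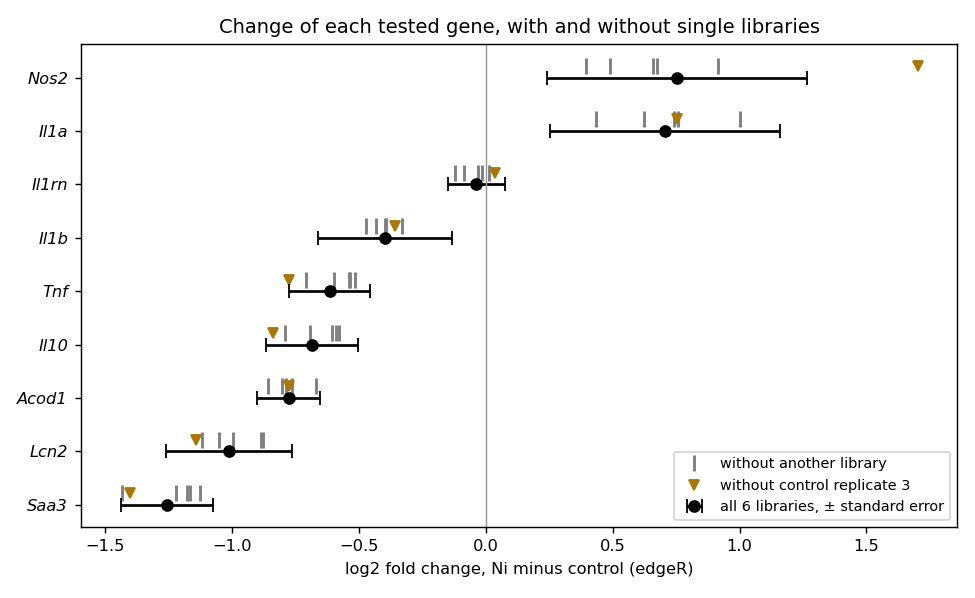
Log2 fold change of the 9 genes tested (horizontal axis, Ni minus control, edgeR) with its standard error, and the values with each library left out in turn, a triangle marking the value without control replicate 3. Saa3, Lcn2, Acod1, Il10, Tnf and Il1b stay below 0 throughout, Nos2 moves from 0.75 to 1.70 without control replicate 3, and Il1rn lies near 0, on either side of it.

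The members and lists were chosen with earlier results of these data known, which limits how counts over them can be read against all genes. Counted over the 7 tested genes other than Saa3 and Acod1, Lcn2, Tnf and Il10 were lower at an unadjusted p under 0.05, where 5.83% of all genes tested were, and 0 were higher, where 7.59% were. All 3 Ni libraries lay below all 3 controls for 4 of the 7 (Lcn2, Il1b, Tnf and Il10), against 6.71% of all genes tested, and above them for Il1a alone, against 7.97%. For these 5 genes the exact two-sided permutation p was 0.1, the smallest it can be. Other settings changed the calls. Without control replicate 3, Lcn2, Tnf and Il10 were called lower (adjusted p = 0.00872, 0.000578 and 0.00263 from edgeR), where 6.49% of 15044 genes were called lower, and Nos2 was called higher, where 8.69% were. DESeq2 on all libraries called Lcn2 and Tnf lower (adjusted p = 0.0496 and 0.0319, with Il10 at 0.0519), against 0.354% of its 13836 genes with an adjusted p. With no filter on low counts edgeR called Lcn2, Tnf and Il10, against 1.42% of 25876 genes.

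The pattern over single libraries separated the genes further. On log2 CPM centred on each gene's mean, control replicate 3 was at 0.29 for Saa3, 0.20 for Lcn2, -0.026 for Il10 and -0.080 for Tnf, where the other controls lay between 0.47 and 0.88. It was at 0.38 for Acod1, level with the other controls, and at 0.75 for Nos2, where the other controls were at -0.89 and -1.38. Of the other 14623 genes tested, those with the pattern most like Saa3 (root mean square difference over the 6 libraries) were Gm48768 (0.155), Cd209f (0.185), Gm10073 (0.190) and the histone pseudogene H3f3c (0.207), and Lcn2 came 13th. Cd209f, a C-type lectin gene, averaged 228 CPM in the controls and 92.9 CPM in the Ni libraries. Most like Acod1 were Cnr1 (0.119), Pm20d1 (0.123), Otor (0.127) and Psmb9 (0.128), the last a subunit of the immunoproteasome. Most like Lcn2 were Dapk2 (0.114), Gm15832 (0.117), Tspan32 (0.161) and Mir142hg (0.171), and Il10 came 13th. Most like Il1rn were Rdh11, Rnls, Kcnj2 and Gpkow, between 0.0243 and 0.0357, which like it hardly varied.

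**Figure D3:**
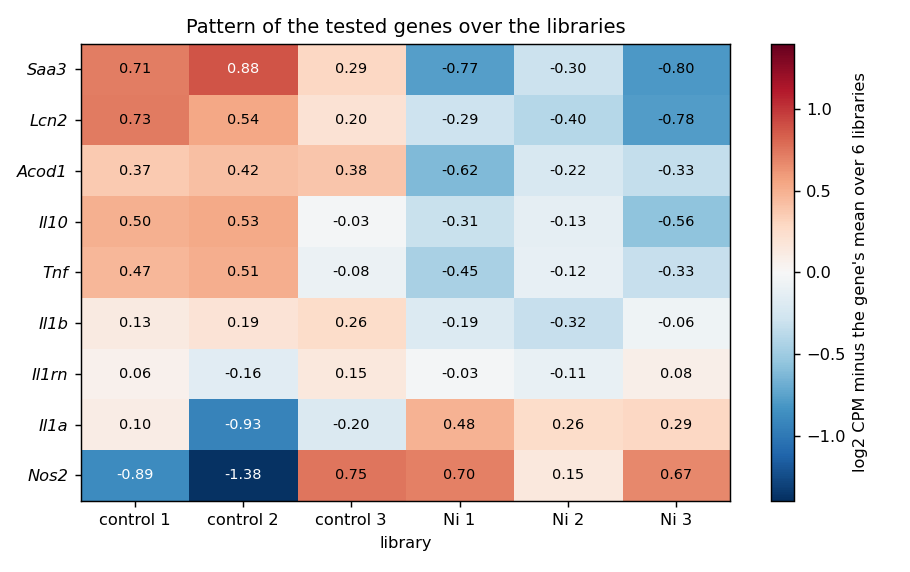
Log2 CPM of the 9 genes tested in each library, minus the gene's mean over the 6 libraries (colour and printed value; columns are libraries). Control replicates 1 and 2 are above the mean for Saa3, Lcn2, Acod1, Il10, Tnf and Il1b, and control replicate 3 is near the mean for Il10 and Tnf and above it for Nos2.

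The members were also set against the transcripts of macrophages in the same library. Of the 22 macrophage markers, 16 had a negative log2 fold change and 5 of these (Itgam, Fcer1g, Aif1, Tyrobp and Ptprc) an unadjusted p under 0.05, against 5.83% of all genes tested, with a median of -0.15, while Csf1r, Cd68 and Lyz2 were at 0.0075, 0.049 and 0.022. Lyz2 was the largest part of the sum, at 11680 ± 2980 CPM in the controls and 11861 ± 941 CPM in the Ni libraries (SD, n = 3 each). The summed level of all 22 was highest in control replicate 3, at 37519 CPM, the control in which Saa3, Lcn2, Tnf and Il10 were lowest. With Lyz2 this large and variable among the controls, that sum is not an even measure of the 22 markers. The sum of Csf1r, Adgre1 and Cd68 alone went the other way and was lowest among the controls in replicate 3, at 4852 CPM against 5805 and 5954 CPM, with 4533 to 5042 CPM in the Ni libraries. Adgre1 was the largest and most variable part of this sum in the controls, at 3354 ± 694 CPM. Csf1r was at 1859 ± 86.2 CPM there and Cd68 at 324 ± 42.1 CPM (SD, n = 3 each). The 3-gene sum is thus not an even measure of its genes either. Relative to the sum of all 22, the difference between Ni and control on the log2 scale was -1.17 for Saa3 and -0.70 for Acod1, without overlap. It was -0.93 for Lcn2 and -0.32 for Il1b, also without overlap (exact permutation test, two-sided, p = 0.1 for both). For Tnf it was -0.51 and for Il10 -0.59, and these groups overlapped (exact permutation test, two-sided, p = 0.2 for both). Relative to the 3-gene sum the groups of Il10 no longer overlapped (-0.48, exact permutation p = 0.1), those of Tnf did (-0.41, exact permutation p = 0.2), and those of Il1b came to overlap (-0.21, exact permutation p = 0.3). Relative to all 22 markers, Il1rn was at 0.053 with overlap (-0.018 without control replicate 2; exact permutation p = 0.6). Il1a was at 0.90 without overlap (exact permutation p = 0.1), from 0.55 without control replicate 2 to 1.22 without control replicate 1. Nos2 was at 1.14 with overlap (exact permutation p = 0.2), from 0.70 without control replicate 2 to 1.73 without control replicate 3. The share of other cells in these values was not tested.

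The genes around the members in the pathway were described from 6 lists, beside a median of -0.0099 over all genes tested. At an adjusted p under 0.05 edgeR called 0 genes of each list. Of all genes tested, 7596 of 14624 were negative, and at an unadjusted p under 0.05 5.83% were lower and 7.59% higher, the shares printed beside the counts below. The lists, like the members, were chosen with earlier results of these data known, so these shares are a description and no test. Of 18 NF-kB subunits, inhibitors and feedback regulators, 17 were negative (median log2 fold change -0.33), and 8 were lower and 0 higher at an unadjusted p under 0.05 (all genes, 5.83% and 7.59%). They included Irak3 (-0.44), which blunts signalling from IL-1 and Toll-like receptors, and Tnip3 (-0.61) and Tnfaip3 (-0.39), which act in the ubiquitin-dependent shut-off of NF-kB. Without control replicate 3, edgeR called 11 genes of this list lower and 1 higher at an adjusted p under 0.05, against 6.49% and 8.69% of all genes.

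Of 22 other acute-phase and antimicrobial genes, 13 were tested, and 7 were lower and 2 higher at an unadjusted p under 0.05 (all genes, 5.83% and 7.59%), with a median of -0.50. Complement C3 averaged 259.9 ± 48.8 CPM in the controls and 154 ± 8.66 CPM in the Ni libraries (SD, n = 3 each), or -0.76 ± 0.14 on the log2 scale (fold change ± SE; edgeR, adjusted p = 0.208). Hp, which encodes the haemoglobin scavenger haptoglobin, was at 698 ± 71.5 CPM in the controls and 492 ± 48.8 CPM in the Ni libraries (log2 fold change -0.50), and Serpina3n, a protease inhibitor, at -0.67. The list did not move one way, since Slpi, an inhibitor of leukocyte proteases, was at 9.22 ± 3.84 CPM in the controls and 26.1 ± 9.16 CPM in the Ni libraries (log2 fold change 1.50, edgeR adjusted p = 0.250). Slpi was named after its value was seen, as was Ptx3 at 0.52. Without control replicate 3, edgeR called 6 genes of this list lower and 3 higher at an adjusted p under 0.05 (all genes, 6.49% and 8.69%).

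Of 28 tested genes for other proteins of activated macrophages, 6 were lower and 1 higher at an unadjusted p under 0.05 (all genes, 5.83% and 7.59%, so the higher count is below its background), with a median of -0.25. The 3 with the smallest p were Sod2, the mitochondrial superoxide dismutase (log2 fold change -0.51), Marco, a scavenger receptor (-0.69), and Fpr2, a formyl peptide receptor (-0.57). The higher one was Ptgs2, which encodes the inducible cyclooxygenase (0.80, named after its value was seen). Of 12 inflammasome and cytokine processing genes, 10 had a negative log2 fold change (median -0.22) and 4 were lower at an unadjusted p under 0.05 (all genes, 5.83%), among them the adaptor Pycard (-0.75), the TNF-releasing protease Adam17 (-0.28) and the DNA sensor Aim2 (-0.29). Without control replicate 3, edgeR called 7 of the activated macrophage genes lower and 7 higher, and 5 of the inflammasome genes lower and 0 higher, at an adjusted p under 0.05 (all genes, 6.49% and 8.69%).

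The receptor and JAK-STAT lists had medians near that of all genes. Of 13 tested cytokine receptors and binding proteins, 6 were positive and 7 negative (median log2 fold change -0.013). The 3 with the smallest p were Slc22a17, which encodes a receptor proposed for lipocalin 2 (0.61, unadjusted p = 0.0300), Il6ra (-0.22) and the TNF receptor gene Tnfrsf1b (-0.21), and the groups overlapped for the last pair. Of 17 genes of the JAK-STAT pathway used by IL-6 and IL-10, 9 were positive and 8 negative, with a median of 0.013. Lifr, a receptor of the IL-6 family, was at 0.36 (unadjusted p = 0.0308) and the kinase gene Tyk2 at -0.28. Without control replicate 3, edgeR called 1 gene of each of these lists lower at an adjusted p under 0.05, a share near the 6.49% of all genes.

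**Figure D4:**
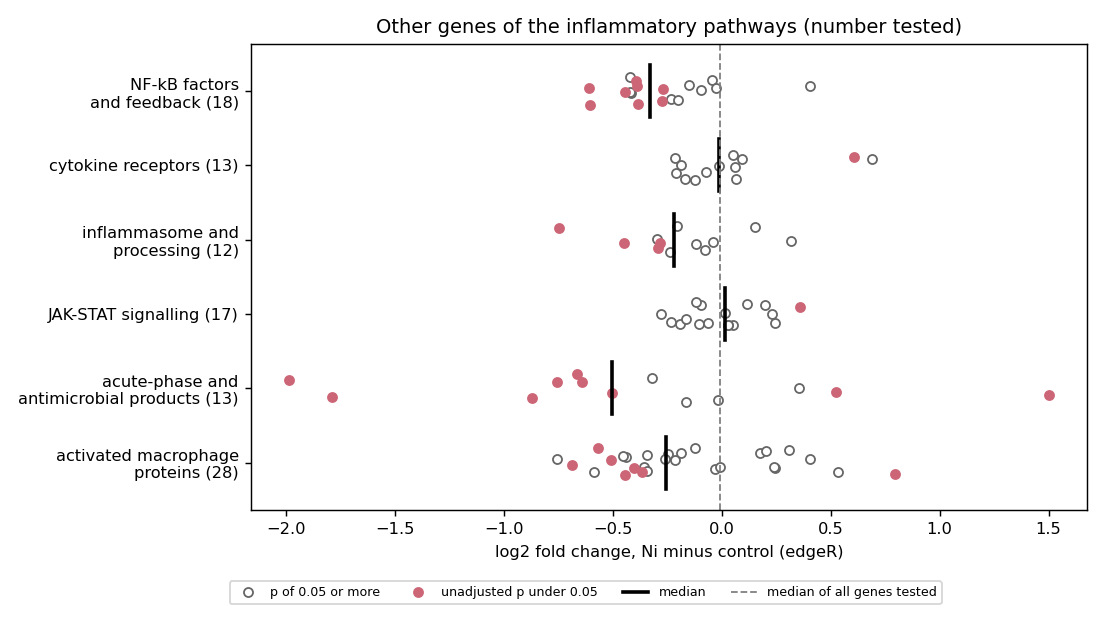
Log2 fold change (horizontal axis, Ni minus control, edgeR) of each tested gene of the 6 pathway lists, 1 point per gene, filled at an unadjusted p under 0.05, with the list's median and, dashed, that of all genes tested. The medians of the NF-kB list, at -0.33, and of the acute-phase list, at -0.50, lie to the left, as do those of the activated macrophage list, at -0.25, and of the inflammasome list, at -0.22. Those of the receptor and JAK-STAT lists lie close to the dashed line.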

How the data were processed

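RNA-seq was carried out on 3 control and 3 Ni libraries, grouped by their labels. The authors deposited raw counts per gene and FPKM values for 54532 genes (GRCm38 per the labels). The aligner, the counting tool and the strand setting are not given in the sources used here. The deposited FPKM equal the counts divided by gene length and 1 factor per library, within a relative deviation of 3.29e-07. No libraries of a group were duplicates, with a chi-square per degree of freedom of at least 4.37.

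Counts were tested in R 4.3.3 with edgeR 4.0.16 (filterByExpr, TMM, glmQLFit and glmQLFTest, robust, Benjamini-Hochberg). Standard errors were the coefficient divided by the root of F. DESeq2 1.42.0 and limma 3.58.1, on log2(FPKM + 1) and log2(FPKM + 0.1), were alternatives. Log2 CPM used a prior count of 2. The fit was tested on simulated data. With 3 against 3 the precision rests on the spread between libraries.

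The members and lists were chosen with earlier results of these data known. Named genes were the members, the 3 genes of each list with the smallest p and, for Saa3, Acod1, Lcn2 and Il1rn, the 4 genes with the nearest pattern. A gene that this rule names is not reported here. The gene structure was taken from GENCODE M21, and no sequence of the proteins was used here. Results of the marker lists not given in the report are the summed levels, in control and Ni libraries, of the osteoblast (5317 to 11944 and 11229 to 16350 CPM), adipocyte (95.9 to 116 and 108 to 127 CPM), osteoclast (637 to 1341 and 661 to 708 CPM), B cell (65.2 to 218 and 62.5 to 89.2 CPM), endothelial (52.0 to 74.6 and 46.0 to 49.6 CPM) and mast cell (6.78 to 11.8 and 9.09 to 12.4 CPM) lists.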

Additional observations from a re-analysis of the deposited data

How the results depend on the processing

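The signs of the log2 fold changes of Saa3, Acod1, Lcn2, Nos2, Il1a, Il1b, Tnf and Il10 held under all alternatives that gave a value. Il1a has none with at least 10 counts required in each library. Other scalings (DESeq2 size factors, library totals), a minimum of 10 counts in each library and limma on FPKM changed no call at an adjusted p under 0.05 and left 0 genes called. The count of genes at an adjusted p under 0.05 was 261 with DESeq2, 1027 with no filter and 315 with the replicate block, and at an unadjusted p under 0.05 it was 3057 with no filter. For these the cause was not tested. Without single libraries the first count ranged from 0 to 2283 and the second from 868 to 4125, the highest without control replicate 3.

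Lcn2 was at -1.01 with DESeq2 and -1.0004 with no filter, Tnf at -0.61 and -0.60, and Il10 at -0.67 with no filter, all with an adjusted p under 0.05. Without single libraries Lcn2 ranged from -1.14 to -0.88, Nos2 from 0.40 to 1.70, Il1a from 0.43 to 1.00, Il1b from -0.47 to -0.33, Tnf from -0.78 to -0.51, Il10 from -0.84 to -0.58 and Il1rn from -0.12 to 0.035. Il1rn turned sign without control replicate 3 (0.035) and without Ni replicate 2 (0.011), and relative to the macrophage sum without control replicate 2 (-0.018, range from -0.018 to 0.12). Saa3 ranged from -1.43 to -1.12 and Acod1 from -0.86 to -0.67. Relative to Csf1r, Adgre1 and Cd68 alone, Il1b was at -0.21. With limma on log2(FPKM + 1), where differences of scarce genes shrink, Lcn2 was at -0.59, Nos2 at 0.41, Il1a at 0.20 and Il1b at -0.21.

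The pairing by replicate number was checked by correlating the deviations of control and Ni libraries from their group means, which gave 0.0104, 0.256 and 0.138, and the numbers were not taken as pairs. With the replicate block Tnf was at -0.60 (adjusted p = 0.0491) and Il10 at -0.68 (adjusted p = 0.0360) in edgeR. Il1a and Il6, with at most 19 counts in a library, are limited by depth.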
